A study of Mus musculus with 24 samples.

Results

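The binding of Myc, TEAD and RNA polymerase II was described within the active chromatin of the same livers, those of tet-Myc mice. Of the 24 samples of the series, the 5 ChIP-seq libraries of this genotype were used, 1 for each antibody. Peaks were chosen by genotype alone: all 32592 Myc, 44220 TEAD and 74914 RNA polymerase II peaks entered, and each was classed by whether it overlapped, by at least 1 bp, a region of H3K4me3 (18772 regions), a region of H3K27ac (20524 regions), both or neither. Mice carried R26-rtTA and tet-Myc and, per the study, were given food with doxycycline for 2 days before the liver was taken and fixed with formaldehyde. The R26 locus is active in most cell types and does not limit rtTA to hepatocytes, and ChIP of whole liver averages over the cells of the organ. Myc from the transgene and from the endogenous gene were not told apart here. The sources used here do not say whether a library came from 1 animal or a pool. With 1 library for each antibody there was no replicate and no test was made: the 95% intervals given in brackets (Wilson for shares, binomial ranks for medians) cover counting only, neighbouring peaks are not independent, and variation between mice is not in them. Positions are those of the mm9 build. No annotation of that build was used, so peaks are named by position, and the liver label was not checked against marker genes.

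Myc is a bHLH transcription factor that binds DNA as a dimer with Max, prefers E-box sequences and, when overexpressed, is known to occupy most active promoters and many enhancers. TEAD factors bind DNA in the Hippo pathway and recruit the coactivator YAP, which binds no DNA itself. H3K4me3 marks promoters, above all those of active or poised genes, and H3K27ac marks active promoters and enhancers. RNA polymerase II gathers at promoters and also lies along transcribed genes. A peak with both marks is therefore what an active promoter would give, and a peak with H3K27ac alone what an active enhancer would give, but the classes below are named only by their marks.

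Myc peaks lay mostly in chromatin with both marks, TEAD peaks less so and RNA polymerase II peaks least. Of all Myc peaks, 59.8% (59.2 to 60.3) overlapped both marks, 33.1% (32.6 to 33.6) H3K27ac only, 1.40% (1.27 to 1.53) H3K4me3 only and 5.75% (5.51 to 6.01) neither. Of TEAD peaks, 41.8% (41.3 to 42.2) overlapped both marks, 34.1% (33.7 to 34.6) H3K27ac only and 22.3% (21.9 to 22.7) neither. Of RNA polymerase II peaks, 28.9% (28.6 to 29.2) overlapped both marks, 30.8% (30.5 to 31.2) H3K27ac only and 39.3% (38.9 to 39.6) neither. The share with H3K27ac only thus differed little among the 3 factors by these regions, and the shares with both marks and with neither mark ran in opposite orders. The libraries differed in depth, with 20.7 M tags in the Myc library, 31.6 M in the TEAD library and 50.6 M in that of RNA polymerase II, and the part of depth in this order was not tested. Among peaks with a −log10 q of at least 10, the share of RNA polymerase II peaks with both marks was 40.1%, that of TEAD peaks 41.9% and that of Myc peaks 63.9%, so that the gap between the first 2 nearly closed. With only the higher-scored 50% of the regions of each mark, the shares with both marks were 38.6% for Myc, 26.1% for TEAD and 17.7% for RNA polymerase II, in the same order, and 21.0% of Myc peaks had neither mark. With the inner blocks of the mark regions in place of their outer bounds, 9.41% of Myc peaks had neither mark, and the shares with H3K27ac only were no longer close, at 35.3% for Myc, 31.4% for TEAD and 20.1% for RNA polymerase II.

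**Figure D1:**
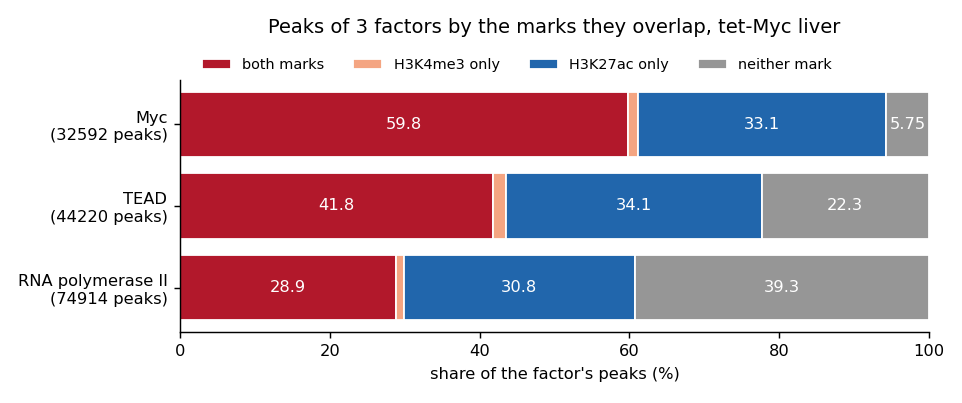
Share of the peaks of each factor (x axis, percent) by the marks they overlapped. Each bar is 1 library of tet-Myc liver. The segment with both marks shrinks from 59.8% for Myc to 28.9% for RNA polymerase II, and the segment with neither mark grows from 5.75% to 39.3%.

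These shares stand against very unequal stretches of genome. Chromatin inside both an H3K4me3 and an H3K27ac region made up 53.2 Mb, or 2.85% of the effective genome of 1.87e+09 bp that the peak caller used. Chromatin inside an H3K27ac region alone made up 177 Mb, or 9.48%, and inside an H3K4me3 region alone 10.4 Mb, or 0.557%. Myc had 366 peaks per Mb of the first, 60.8 per Mb of the second and 43.7 per Mb of the third. TEAD had 347, 85.1 and 74.6 peaks per Mb, and RNA polymerase II 407, 130 and 71.5. For each factor the density of peaks was thus highest where the marks coincided, and among these 3 kinds of marked chromatin it was lowest in H3K4me3 without acetylation. Unmarked chromatin is not among them.

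Seen from the marks, H3K4me3 regions with and without H3K27ac were occupied very differently. Of the 15475 H3K4me3 regions that overlapped H3K27ac, 83.6% (83.0 to 84.1) held a Myc peak, 78.4% (77.7 to 79.0) a TEAD peak and 91.3% (90.8 to 91.7) an RNA polymerase II peak. All 3 factors were present in 69.6% of them and none in 4.02%. Of the 3297 H3K4me3 regions without H3K27ac, 13.0% (11.9 to 14.2) held a Myc peak, 21.8% (20.5 to 23.3) a TEAD peak and 16.7% (15.5 to 18.0) an RNA polymerase II peak. All 3 factors were present in 3.34% of these and none in 63.8%. The unacetylated regions were also narrower, with a median width of 1613 bp against 2889 bp. In H3K4me3 with acetylation the order of occupancy was RNA polymerase II, Myc, TEAD, and in H3K4me3 without it TEAD came first.

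H3K27ac regions without H3K4me3 numbered 7580, of 20524. TEAD was the factor most often found in them, with a peak in 67.8% (66.8 to 68.9), against 51.6% (50.5 to 52.7) for Myc and 42.2% (41.1 to 43.3) for RNA polymerase II. A TEAD peak with neither of the other factors was found in 19.0% of these regions, a Myc peak with neither of the others in 4.72%, and all 3 factors in 25.8%. Myc with RNA polymerase II but no TEAD was found in 4.42%, and TEAD with RNA polymerase II but no Myc in 6.42%. Regions with TEAD but no Myc thus outnumbered those with Myc but no TEAD. Over all 20524 H3K27ac regions TEAD was also the most frequent, in 77.8% against 73.4% for Myc and 73.8% for RNA polymerase II. The TEAD list held more peaks than the Myc list and its library was deeper, and this was not corrected for.

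Wider H3K4me3 regions more often held each factor. With regions split by width into 5 bins of equal number, from 470 to 1520 bp up to 4627 to 97523 bp, the share with a Myc peak went from 46.0% (44.4 to 47.6) through 67.9%, 76.3% and 80.3% to 85.5% (84.3 to 86.6). For TEAD it went from 49.0% to 84.4%, and for RNA polymerase II from 48.0% to 93.0%. Density went the other way: Myc peaks per 10 kb of region fell from 4.24 in the narrowest bin to 2.74 in the widest, and TEAD peaks from 4.59 to 2.59. The share of regions occupied therefore rose with width by less than the length of sequence did. The strongest Myc peak of each occupied region was also higher in wide regions, with a median pileup (the number of fragments stacked at the summit) of 36 (35 to 37) in the narrowest bin and 54 (53 to 55) in the widest. A wide region has room for more peaks, and the number of peaks per region was not corrected for.

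**Figure D2:**
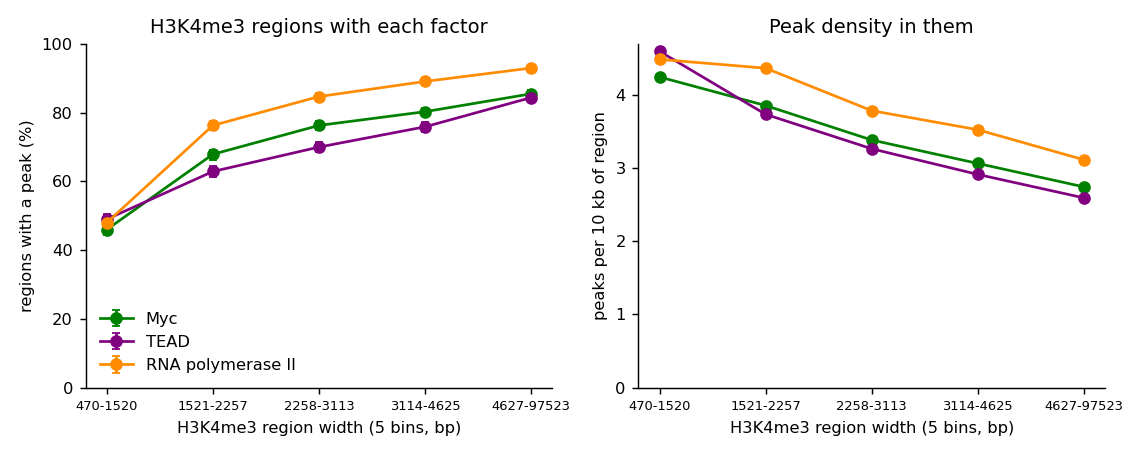
H3K4me3 regions in 5 bins by width (x axis, bp): the share with at least 1 peak of each factor (left, percent, bars are Wilson 95% intervals) and the number of peaks per 10 kb of region (right). Shares climb for all 3 factors, from 46.0 to 85.5% for Myc, while density falls, from 4.24 to 2.74 Myc peaks per 10 kb.

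The H3K4me3 region with the most Myc peaks, at chr6:119350024-119371692, was 21669 bp wide and held 14 Myc peaks, 4 TEAD peaks and 3 RNA polymerase II peaks. Within H3K4me3 regions, Myc summits lay toward the middle. On a scale from 0 at the centre of the region to 1 at its edge, the median Myc summit was at 0.389 (0.383 to 0.395), the median RNA polymerase II summit at 0.396 (0.391 to 0.401) and the median TEAD summit at 0.437 (0.431 to 0.443). TEAD was thus a little farther out than both others. Myc pileup had a median of 40 for summits nearer to the centre than to the edge and of 36 for the rest, and RNA polymerase II pileup of 110 and 80.0, while TEAD pileup had a median of 39 in both.

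Myc peaks with both marks were wider and higher than the others. Their median width was 807 bp (799 to 815) and their median pileup 39 (38 to 39). With H3K27ac only, the medians were 578 bp (573 to 583) and a pileup of 31 (30 to 31). With H3K4me3 only, they were 498 bp (476 to 514) and 27 (27 to 28), and with neither mark 442 bp (435 to 449) and 26 (26 to 27). The widths spread widely within a class, the middle 50% of both-mark peaks running from 551 to 1173 bp and that of H3K27ac-only peaks from 436 to 762 bp. Enrichment over control gave the same order, with a median fold of 9.29 with both marks, 7.25 with H3K27ac only and 6.58 with neither. A wide peak touches a region more easily than a narrow one. When the summit itself had to lie inside the region, the both-mark and H3K27ac-only medians were 810 and 580 bp.

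TEAD pileup hardly changed with the marks, in contrast. Its median was 39 with both marks, 36 with H3K4me3 only, 38 with H3K27ac only and 36 with neither, although median TEAD width went from 600 bp with both marks to 443 bp with neither. RNA polymerase II was at the other extreme, with a median pileup of 98 (96 to 100) with both marks, 46 with H3K4me3 only, 40 with H3K27ac only and 36 with neither. Pileups of different libraries are on different scales, since depth differed, so that only the pattern within a factor can be read.

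High Myc peaks were mostly in chromatin with both marks. Split by pileup into 5 bins of about equal number, Myc peaks had both marks in 45.3% (44.2 to 46.5) of the lowest, with a pileup of 15 to 24, and in 79.5% (78.5 to 80.5) of the highest, with a pileup of 57 to 654. The share with H3K27ac only went from 41.5% to 19.0%, and the share with neither mark from 10.8% to 0.938%. In the highest 10%, with a pileup of at least 75, 84.6% (83.4 to 85.8) had both marks and 14.4% H3K27ac only. By number, the weakest Myc peaks were thus divided about evenly between both kinds of acetylated chromatin, and the strongest were not. Chromatin with both marks covered 53.2 Mb and that with H3K27ac only 177 Mb, so that per Mb the weakest were not even.

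Width and height of Myc peaks were related, with a Spearman correlation of 0.74 across the 32592 peaks, 0.72 among those with both marks and 0.69 among those with H3K27ac only. These are correlations across peaks of 1 library, for which a higher peak also crosses the caller's threshold over a longer stretch. At like pileup, both-mark peaks were wider than H3K27ac-only peaks in each bin. In the lowest bin the medians were 424 bp (417 to 430) and 407 bp (401 to 413). With a pileup of 40 to 56 they were 950 bp (938 to 964) and 733 bp (722 to 744). In the highest bin they were 1245 bp (1226 to 1266) and 908 bp (884 to 923). At like width the reverse comparison showed almost no difference. Median pileups in the 4 narrower bins by width were 23, 29, 35 and 45 with both marks and 23, 29, 36 and 45 with H3K27ac only. They parted only among peaks of 1096 bp or more, at 60 (59 to 61) and 50 (48 to 52). That bin ran up to 12804 bp, and the highest pileup bin from 57 to 654, so that Myc peaks within them were less closely matched. The classes thus differed more in how wide a peak of a given height was than in how high a peak of a given width was. Very wide peaks were almost all in 1 class: of the 1075 Myc peaks over 2 kb, 1029 had both marks, 42 H3K27ac only, 1 H3K4me3 only and 3 neither.

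**Figure D3:**
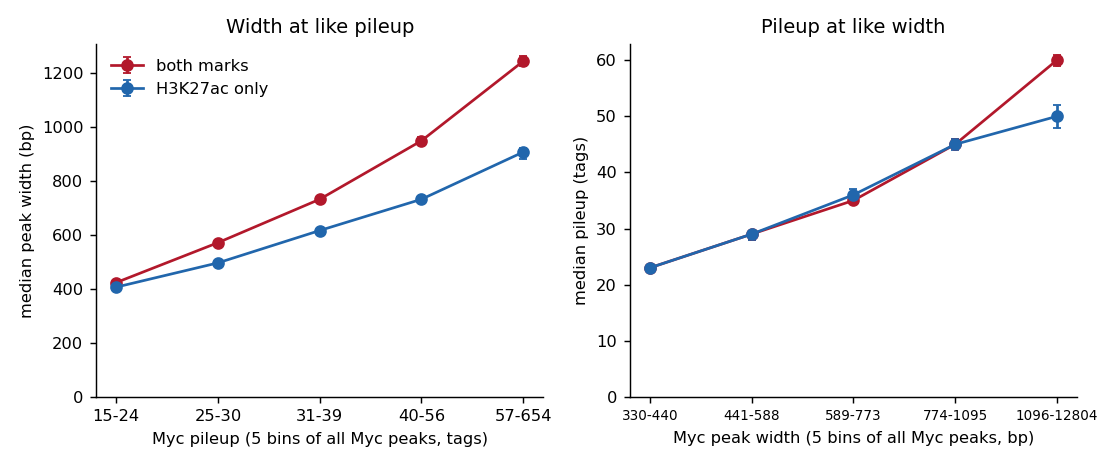
Left, median width of Myc peaks (y axis, bp) in 5 bins of pileup (x axis, tags). Right, median pileup in 5 bins of width (x axis, bp). Lines are Myc peaks with both marks and with H3K27ac only, and bars are 95% intervals of the median from binomial ranks. Widths part as pileup grows, to 1245 and 908 bp, whereas pileups are nearly the same up to the widest bin, where they are 60 and 50. The last bin of each panel is open at the top, so that peaks in it are less closely matched.

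The strongest Myc peaks of each class show these ranges. By −log10 q, the first Myc peak with both marks lay at chr13:38749855-38751188, was 1334 bp wide and had a pileup of 375, 103-fold over control, with TEAD and RNA polymerase II peaks of pileup 58 and 198 on it. The next were at chr13:73468179-73469468, with a Myc pileup of 367, and at chr11:6426521-6429363, with 344. The first peak with H3K27ac only, at chr1:51906189-51907405, had a Myc pileup of 271 and was 68.4-fold over control. All of these had a TEAD and an RNA polymerase II peak on them. The TEAD pileups were 58, 33, 23 and 31, the first above and the others below the TEAD median of 38.

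The other leading peaks with H3K27ac only were at chr2:134549352-134550390, with a Myc pileup of 195, and at chr8:129331060-129333271, with 185. The second of these lay in the widest H3K27ac region of the list, of 250960 bp. With H3K4me3 only, the first 3 were at chr5:136577961-136578769, chr2:37627064-37627946 and chr15:44618902-44619728, with Myc pileups of 134, 133 and 92. With neither mark, they were at chr13:56152714-56153415, chr10:51763614-51764531 and chr8:83506308-83507187, with pileups of 112, 97 and 97. The leading peak of each class by −log10 q was thus lower in the order both marks, H3K27ac only, H3K4me3 only and neither, as the medians were. The classes were of unequal size, with 19482, 10780, 455 and 1875 Myc peaks in that order. A larger class has more room for a high peak, and this was not corrected for.

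Width picked out other sites than height did. The widest Myc peak, with both marks, was at chr19:5832099-5844902, spanned 12804 bp with a pileup of 65, and held 6 TEAD peaks. A single RNA polymerase II peak of pileup 479 lay over it, within an H3K4me3 region of 27171 bp. The widest Myc peak with H3K27ac only, at chr4:150243046-150247382, spanned 4337 bp with a pileup of 45 and lay under an RNA polymerase II peak of pileup 407. The widest with neither mark, at chr12:8016720-8020156, spanned 3437 bp with a pileup of 35 and lay under one of pileup 465. All 3 had Myc pileups above the median of 34 of the Myc list, and lay under RNA polymerase II peaks far above the median of 42 of theirs. The widest Myc peak with H3K4me3 only, at chr17:39979877-39984026, was unlike them: it spanned 4150 bp with a pileup of 553 but was only 1.93-fold over control, and had no TEAD or RNA polymerase II peak. Another 4 Myc peaks with neither mark lay on chromosome M, with pileups of 647 to 654 and folds of 1.28 to 1.38. In all, 32 Myc peaks had a fold under 3, and leaving them out moved none of the 10 main Myc values for which this was tried beyond its interval.

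TEAD and RNA polymerase II accompanied Myc to different extents in each class. Of Myc peaks with both marks, 93.3% (93.0 to 93.7) overlapped an RNA polymerase II peak and 70.6% (69.9 to 71.2) a TEAD peak. With H3K27ac only, the shares were 62.7% (61.8 to 63.6) and 64.0% (63.1 to 64.9). With H3K4me3 only they were 40.7% and 48.1%, and with neither mark 22.6% (20.7 to 24.5) and 45.2% (43.0 to 47.5). The share with RNA polymerase II thus varied more between the classes than that with TEAD. RNA polymerase II was the more frequent with both marks and TEAD with neither mark. With H3K27ac only or H3K4me3 only the intervals of the 2 partners overlapped, but both shares are of the same Myc peaks. With H3K27ac only, TEAD alone was on 2351 of these and RNA polymerase II alone on 2212, and with H3K4me3 only on 111 and 77. TEAD was thus slightly the more frequent in both.

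At like Myc height or width, TEAD differed less between the both-mark and H3K27ac-only classes than RNA polymerase II did. At like pileup, TEAD overlapped 47.1% of both-mark and 48.6% of H3K27ac-only Myc peaks in the lowest bin, and 69.5% and 68.6% in the middle one. With a pileup of 40 to 56 TEAD was more frequent with both marks, at 79.5% (78.3 to 80.7) against 74.7% (72.7 to 76.6). In the highest bin the shares were 85.3% (84.3 to 86.2) and 80.6% (78.3 to 82.8). At like width, the share with TEAD was lower with both marks in each of the 4 narrower bins, but the intervals were apart only in the second, at 54.7% (52.9 to 56.5) against 59.4% (57.6 to 61.2). It was higher in the widest, at 88.1% (87.2 to 88.9) against 84.4% (81.7 to 86.8). RNA polymerase II differed more: at like pileup it overlapped 84.0% of both-mark and 55.8% of H3K27ac-only peaks in the lowest bin, and 98.4% and 77.6% in the highest. The TEAD library was deeper than the Myc library, and a wider Myc peak overlaps others more easily. The highest and the widest bin are open at the top, so that Myc peaks in them were less closely matched.

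Myc peaks with both partners were wider than those with neither partner in each class. They were also higher in each class except that with neither mark, where the intervals of the median pileup overlapped. Among both-mark Myc peaks, the 13172 with both TEAD and RNA polymerase II had a median pileup of 44 and a median width of 931 bp. The 5007 with RNA polymerase II alone had 31 and 625 bp, the 577 with TEAD alone 30 and 551 bp, and the 726 with neither 26 and 460 bp. Among H3K27ac-only Myc peaks the same 4 groups had median pileups of 35, 27, 30 and 27. With H3K4me3 only, median pileup was 30.5 (29 to 34) with both partners and 26 (25 to 28) with neither, and median width 557 and 445 bp. With neither mark, the pileups were 27 (25 to 29) and 26 (26 to 27), and the widths 470 and 417 bp. RNA polymerase II alone thus went with higher Myc peaks where both marks were present but not with H3K27ac only, and with neither mark its median was lower, at 24 (23 to 24), than that of 26 (26 to 27) without a partner.

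Seen from the partners, the share with Myc also varied with class. Myc overlapped 80.1% (79.5 to 80.6) of TEAD peaks with both marks, 46.5% (45.7 to 47.3) with H3K27ac only, 28.3% (25.3 to 31.6) with H3K4me3 only and 8.59% (8.05 to 9.16) with neither. The 9871 TEAD peaks with neither mark were therefore mostly without Myc. Of RNA polymerase II peaks, Myc overlapped 72.6% (72.0 to 73.1) with both marks, 26.2% (25.7 to 26.8) with H3K27ac only and 1.14% (1.03 to 1.27) with neither. With neither mark there were only 1875 Myc peaks for 9871 TEAD and 29413 RNA polymerase II peaks, which by itself keeps these shares low. With both marks the numbers were closer, at 19482, 18477 and 21654, and list size was not corrected for. Both-mark RNA polymerase II peaks had a median pileup of 139 with Myc and 47 without. For TEAD the same medians were 40 and 34, on the scale of another library. Both-mark peaks with Myc were also wider, at a median of 1147 against 591 bp for RNA polymerase II. For TEAD these widths were 643 and 460 bp, and width was not corrected for.

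**Figure D4:**
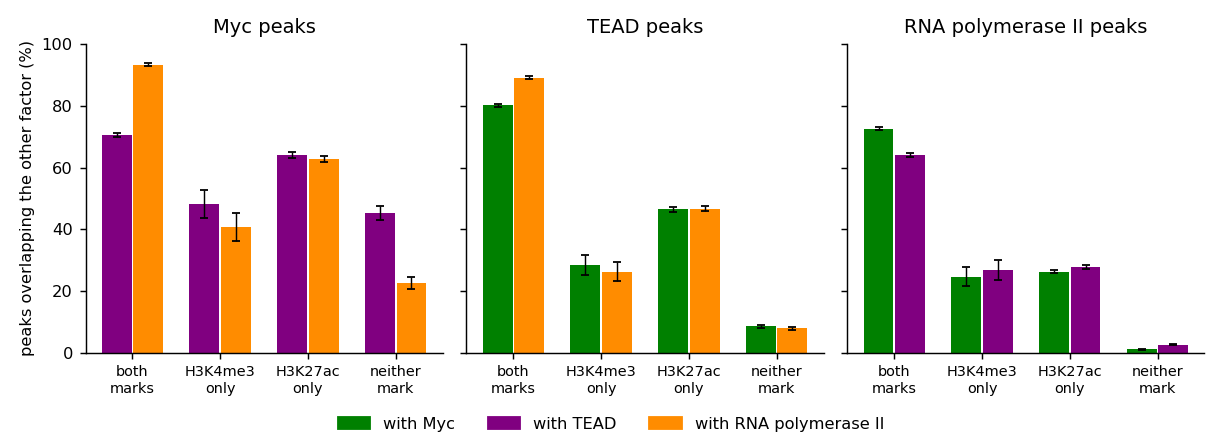
Share of the peaks of each factor (y axis, percent) that overlapped a peak of another factor, by class of marks, with Wilson 95% intervals. TEAD overlapped 70.6 and 64.0% of Myc peaks with both marks and with H3K27ac only, whereas Myc overlapped 80.1% of TEAD peaks with both marks and 8.59% of those with neither.

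Strong TEAD sites were found with strong, weak or no Myc. The first TEAD peak with both marks, at chr5:137754747-137756166, had a TEAD pileup of 510 and a Myc peak of pileup 80 on it. The first TEAD peak with H3K27ac only, at chr11:80631159-80632386, also had a TEAD pileup of 510 but no Myc and no RNA polymerase II peak. With neither mark, the first TEAD peak, at chr2:50542426-50543371, had a TEAD pileup of 480 and a Myc peak of pileup 26. The first with H3K4me3 only, at chr2:51893206-51894110, had a TEAD pileup of 330 and a Myc peak of pileup 35. TEAD could thus be about as high outside marked chromatin as within it, which the leading Myc peaks were not. The class with neither mark held 9871 TEAD but only 1875 Myc peaks, and this was not corrected for.

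Of the 4 leading RNA polymerase II peaks, 3 were long. The first with both marks, at chr4:49547060-49562989, spanned 15930 bp with a pileup of 545 and 5 Myc and 3 TEAD peaks on it. The first with H3K27ac only, at chr3:98111528-98117992, spanned 6465 bp with a pileup of 389, and the first with neither mark, at chr15:82495503-82506291, spanned 10789 bp with a pileup of 357. These held 4 and 3 Myc peaks and no TEAD peak. The first with H3K4me3 only, at chr1:36568259-36569059, was 801 bp wide with a pileup of 270 and 1 Myc and 1 TEAD peak.

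Distances between summits were taken only for Myc peaks that overlapped a partner, so that short distances follow from this choice. The distance from a Myc summit to the nearest TEAD summit had a median of 164 bp (160 to 168) for overlapping peaks with both marks, 111 bp (108 to 115) with H3K27ac only, 113 bp (91 to 147) with H3K4me3 only and 86 bp (78 to 94) with neither. Within 100 bp of each other lay 35.3% of the summits with both marks and 46.0% of those with H3K27ac only. For RNA polymerase II the medians were 184 bp (180 to 190) with both marks, 157 bp (152 to 163) with H3K27ac only and 236 bp (201 to 271) with neither. Peaks with both marks were wider, which leaves more room between summits, and this was not corrected for. Fragments were 295 to 330 bp long, so that many of these distances are below the length of 1 fragment.

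Myc peaks lay close together in acetylated chromatin and far apart outside it. The nearest other Myc summit, of any class, was at a median distance of 2994 bp (2897 to 3100) from both-mark peaks and 5343 bp (5171 to 5536) from H3K27ac-only peaks. It was at 26334 bp (23028 to 31570) from H3K4me3-only peaks and 23992 bp (22325 to 25725) from peaks with neither mark. Another Myc summit lay within 2 kb of 39.5% of both-mark and 22.5% of H3K27ac-only peaks, but within 10 kb of 70.9% and 67.6%. The cumulative shares of the 2 classes with H3K27ac were thus apart at 2 kb and close at 10 kb. Between these distances the share rose more for H3K27ac-only peaks.

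The order of these first 2 classes depended on how peaks were split. With Myc peaks whose edges were at most 1 kb apart joined into 1, the median distance was 8869 bp (8625 to 9114) with both marks and 7510 bp (7289 to 7717) with H3K27ac only, the reverse order. The shorter distance of both-mark peaks as deposited thus lay in peaks whose edges were within 1 kb of another. Among peaks with a −log10 q of at least 10, the distances were 5564 and 7684 bp, in the order of the full list. Joined peaks with H3K4me3 only and with neither mark remained far apart, at 30269 and 25150 bp.

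**Figure D5:**
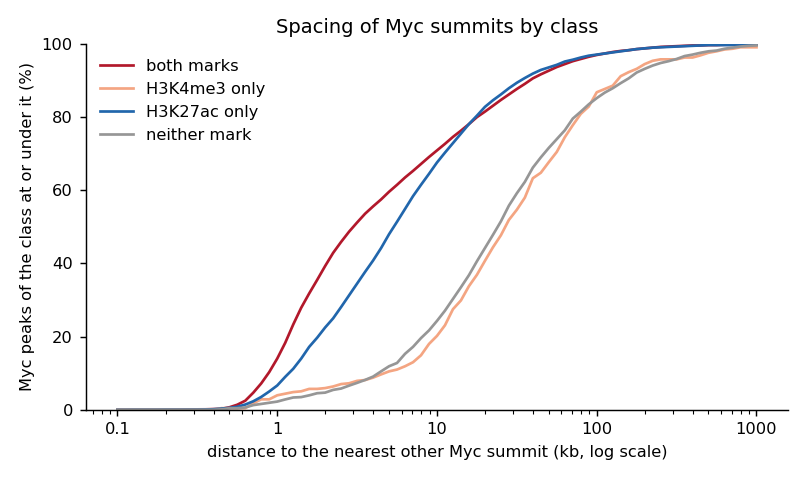
Cumulative share of Myc peaks of each class (y axis, percent) whose nearest other Myc summit lay at or under a given distance (x axis, kb, log scale). The curves with both marks and with H3K27ac only are apart at 2 kb, at 39.5 and 22.5%, and nearly together at 10 kb, at 70.9 and 67.6%, and both lie far to the left of the other 2 classes.

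Close spacing went with lower Myc peaks where both marks were present. The nearest other Myc summit was at a median of 1618 bp from both-mark peaks of the lowest pileup bin and 6208 bp from those of the highest. For H3K27ac-only peaks the same distances were 4562 and 6000 bp, so that the strongest peaks of both classes were at similar distances. Many weak both-mark peaks were thus near another Myc peak.

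Neighbouring Myc peaks mostly shared their class at short range. Of the 5752 pairs of adjacent Myc summits within 2 kb, 95.8% (95.2 to 96.3) were of 1 class, 73.9% being both-mark pairs and 20.9% H3K27ac-only pairs. Mark regions are wide, so that such neighbours often shared a region. Of 9075 pairs over 2 and up to 10 kb apart, 64.9% were of 1 class, and 31.4% joined a both-mark to an H3K27ac-only peak. In these 2851 mixed pairs the both-mark peak had the higher Myc pileup in 66.1% (64.4 to 67.8), and in 65.2% of the 3584 mixed pairs over 10 and up to 50 kb apart. The greater height of both-mark peaks was thus also seen between neighbours.

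Runs of Myc peaks were formed by joining summits at most 12500 bp apart, which gave 16372 runs, of which 9550 were single peaks. Both marks were present on 52.0% (51.0 to 53.0) of single peaks and on 65.1% (63.9 to 66.2) of peaks in runs of 5 to 9. Neither mark was present on 13.7% of single peaks but on 1.25% in such runs and 1.12% in runs of 10 or more. RNA polymerase II overlapped 68.0% of single peaks and 92.9% of peaks in runs of 10 or more, while TEAD went the other way, from 72.3% to 55.5%. Median pileup of both-mark peaks was 45 (44 to 45) for single peaks and 35 (34 to 36) in runs of 10 or more, and that of H3K27ac-only peaks 31 and 28. Long runs were thus made of lower Myc peaks under RNA polymerase II, with less TEAD.

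The longest run, at chr4:107720962-107806215, held 42 Myc peaks over 85.3 kb, with a median gap of 1749 bp between summits. Of these peaks, 17 had both marks, 24 H3K27ac only and 1 neither. Their pileups ran from 18 to 66, with a median of 26, below the median of 34 of the whole list. All 42 overlapped RNA polymerase II, which formed 8 peaks over the run, and 9 overlapped TEAD.

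Myc peaks with H3K27ac only were of 2 kinds by their surroundings. Of these 10780 peaks, 50.1% lay in an H3K27ac region that also held H3K4me3 elsewhere, and 49.9% in one that did not. Height and width were alike, with median pileups of 30 and 31 and median widths of 575 and 581 bp. Spacing was not: the nearest other Myc summit was at a median of 3816 bp (3644 to 3933) in the first kind and 11102 bp (10512 to 11730) in the second. The neighbour could be of any class. In the first kind it could thus be a Myc peak on the H3K4me3 by which that kind was defined, and this was not separated. TEAD overlapped 58.6% of the first and 69.4% of the second, and RNA polymerase II 73.1% and 52.2%.

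The same shift appeared with distance from H3K4me3. The median gap from an H3K27ac-only Myc summit to the nearest H3K4me3 region was 14497 bp (14117 to 14882). With a gap under 2 kb, 38.0% (34.3 to 41.9) of these Myc peaks overlapped TEAD, with 2 to 10 kb 59.7% (58.1 to 61.3), with 10 to 50 kb 66.1% (64.7 to 67.4) and over 50 kb 75.8% (73.8 to 77.7). RNA polymerase II overlapped 60.7%, 70.9%, 64.0% and 44.0% of them. Myc pileup had a median of 26 under 2 kb and of 30 or 31 at the longer distances. Median width was 492 bp under 2 kb and 578, 588 and 583 bp at the longer distances, and the overlaps were not corrected for it. Beyond 50 kb, H3K27ac-only Myc peaks were thus about as high as those at 2 to 50 kb and higher than those under 2 kb. They were more often with TEAD and less often with RNA polymerase II than those at each shorter distance. Myc peaks with neither mark showed TEAD in 32.0% at 2 to 10 kb and in 57.7% beyond 50 kb, and RNA polymerase II in 32.0% and 9.74%.

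RNA polymerase II peaks outside the marks lay close to another such peak. Those with neither mark had their nearest other RNA polymerase II summit at a median of 1369 bp (1353 to 1384), those with H3K27ac only at 1563 bp (1544 to 1584) and those with both marks at 2665 bp (2610 to 2715). Runs were not formed for RNA polymerase II and its close peaks were not joined, so that the part of split peaks in these distances was not tested. For TEAD the order was that of Myc, at 2660 bp with both marks, 4595 bp with H3K27ac only and 18633 bp with neither. Of H3K27ac-only RNA polymerase II peaks, 66.3% lay in an H3K27ac region that also held H3K4me3, against 50.1% for Myc and 47.8% for TEAD.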

How the data were processed

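The submitters' processing notes name BWA 0.6.2, SAMtools and MACS2 2.0.9, and the mm9 build. Narrow lists were, per the file headers, called on each library alone with a p-value cutoff of 1.00e-05. They were deposited with a pileup signal for each peak, the fold enrichment over control as a ratio, and −log10 p and −log10 q values. Broad lists were deposited by the authors with a score per region, of unstated scale, used here only to rank regions. The sources used here do not state the depth or cutoffs of the broad lists. ChIP libraries had 20.7 to 50.6 M tags after filtering and controls about as many. Pileup is not normalised between libraries.

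Overlaps (at least 1 bp) and distances between summits were computed in Python 3.11.15 with numpy 2.4.6 and pandas 2.3.3. Checked on simulated data, 11 of 11 checks passed, and bedtools 2.31.1 gave the same 21712 Myc peaks with TEAD. Intervals used scipy 1.17.1 and figures matplotlib 3.10.9. The classes, results and lists were chosen with earlier results of these data known. Positions given are the 3 Myc peaks of highest −log10 q and the widest Myc peak of each class, the first TEAD and RNA polymerase II peak of each class, the H3K4me3 region with most Myc peaks and the longest run. Alternatives were stricter peaks, summits in place of overlap, higher-scored regions, widened regions and joined Myc peaks. Inner blocks and leaving out Myc peaks of fold under 3 were added after seeing the data.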

Additional observations from a re-analysis of the deposited data

How the results depend on the processing

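No paired analysis was possible because the result comes from no test and each antibody had 1 library. Of the 12 values below, the width, pileup and class orders held under every alternative run, and the order of spacing between both-mark and H3K27ac-only Myc peaks reversed with Myc peaks joined. The causes of the shifts were not tested beyond what each alternative does by construction.

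Values that left their 95% interval were as follows. Shares with both marks were, for Myc, 63.9% among peaks with −log10 q of at least 10, 58.8% by summit, 38.6% with higher-scored regions, 60.8% with regions widened by 1 kb, 56.2% with Myc peaks joined and 53.3% with inner blocks. For TEAD they were 40.8% by summit, 26.1% with higher-scored regions, 43.1% with widened regions and 36.1% with inner blocks, and for RNA polymerase II 40.1% (q), 27.7% (summit), 17.7% (score), 31.7% (widened) and 24.2% (blocks). The share of Myc peaks with neither mark was 4.41% (q), 21.0% (score), 6.77% (joined) and 9.41% (blocks).

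Median Myc width with both marks was 905 bp (q), 873 bp (score), 1049 bp (joined) and 848 bp (blocks), and with H3K27ac only 650, 651, 603 and 593 bp in the same order. Median pileup with both marks was 44 (q), 40 (score), 44 (joined) and 40 (blocks), and with H3K27ac only 36 (q) and 33 (score). Median distance to the next Myc summit with both marks was 5564 bp (q), 2305 bp (score), 8869 bp (joined) and 3451 bp (blocks). With H3K27ac only it was 7684 bp (q), 3728 bp (score), 5623 bp (widened), 7510 bp (joined) and 4386 bp (blocks). TEAD overlapped 62.9% of both-mark Myc peaks (q, which also thins the TEAD list), 58.5% (summit inside the TEAD peak), 69.9% (score), 69.9% (widened), 78.7% (joined) and 72.8% (blocks). A Myc peak was found in 64.7% of H3K4me3 regions (q), 94.0% (score) and 65.3% (blocks). Leaving out Myc peaks with a fold under 3 moved none of the 10 values it touches.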

Other observations

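The X chromosome stood apart from the autosomes in these lists. Of its 539 H3K4me3 regions, 47.7% (43.5 to 51.9) held a Myc peak, against 69.2 to 75.6% on the autosomes. Of these regions, 43.8% held a TEAD peak, against 66.2 to 74.5%, and 66.4% an RNA polymerase II peak, against 73.8 to 83.6%. H3K27ac overlapped 68.3% of them, against 79.7 to 86.1% on the autosomes, and of the 434 Myc peaks on X, 17.3% had H3K27ac only, against 28.3 to 38.4%. Median Myc pileup was 29 on X and 33 to 36 on the autosomes. H3K4me3 regions were also narrower on X, with a median of 2258 bp against 2567 to 2787 bp, and occupancy was not corrected for width. The sources used here do not state the sex of the mice. The lists did hold peaks on chromosome Y, 3 of Myc, 3 of TEAD and 23 of RNA polymerase II. The part of the number of X copies in these values was not tested. Chromosome X was singled out after its values were seen.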
